A study of Mus musculus with 9 samples.

Results

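The cytosolic ribosomal protein genes were described across reporter-positive and reporter-negative thymic epithelial cells of the mouse. Members were all genes of the array annotation with a single symbol of Rpl or Rps followed by a digit, plus Rplp0, Rplp1, Rplp2 and Rpsa, without the Rps6k kinases and symbols ending in -ps. The rule found 50 of the 18194 genes tested. They were 21 genes of the small subunit, 20 of the large subunit, 2 of the stalk, 6 paralogues and 1 gene, Rps19bp1, that encodes a protein binding Rps19 and no subunit. Each gene was read by its brightest probe set, the set of short probes that reports it. Probe sets that list several symbols were assigned to no gene, so subunits such as Rpl3, Rpl5 and Rplp1 are not among the 50.

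RNA was measured on 9 Affymetrix arrays in 3 groups of 3 arrays, and the titles name these groups ZsG plus, ZsG minus mTEC and ZsG minus cTEC. All mice were of the C57BL/6 background and 8 to 20 weeks old. ZsG is a green fluorescent protein whose gene had been placed at the start codon of Tslp, the gene of the cytokine thymic stromal lymphopoietin, on a bacterial artificial chromosome. The labels give no other allele or agent. The titles separate cells without reporter signal, cortical (cTEC) or medullary (mTEC), from cells with it (plus), and the comparison asks how these differ in expression. The reporter marks only cells in which that transgene is active. The sort gates, the number of animals behind a sample and the compartment of the ZsG plus cells are not stated in the labels. The cell type field reads keratinocytes in all 9 samples and thus differs from the titles. Total RNA of 5 ng was amplified for each array. Nothing in the labels ties replicates to different animals, and each p-value therefore covers the spread among these arrays alone, which may be technical.

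Ribosomal proteins are the protein part of the ribosome: the small subunit reads the mRNA, the large subunit joins amino acids, and the stalk of the large subunit recruits elongation factors. Their mRNAs are abundant in nearly all cells, and many begin with a run of pyrimidines, the 5′ terminal oligopyrimidine tract, through which mTOR and Larp1 set how strongly they are translated. Because this control acts on translation, it need not change the mRNA levels that arrays report.

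Genomic sequence around the annotated start was examined in 44 members with an entry in the RefSeq promoter table of assembly GRCm38.p6. An unbroken run of at least 5 C or T letters that opened with a C at the first transcribed base was found in 8 members (18.2%), against 2.93% of 14453 genes in the table. These members were Rpl14, Rpl35, Rpl38, Rplp2, Rps10, Rps18, Rps27 and Rps6. The sequences below run from 60 bases before the start to 20 bases into the transcript on the gene's strand. They are shown because the run at the start is the feature by which these mRNAs are known to be controlled together, and capitals mark the unbroken C or T run that covers the start. Rps25 is shown beside 5 members with a run because it stood with Rpl14 at the low end of the differences. Its annotated start carries no such run, but a C or T run that opens with a C ends a few bases before it. Only runs at the annotated first base were counted, so a run beside a differently placed start would be missed. Whether the run bears on the differences was not tested.
Rpl14, chr9:120571457-120571536, plus strand: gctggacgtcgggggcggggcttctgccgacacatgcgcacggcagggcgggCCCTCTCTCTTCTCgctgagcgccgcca
Rpl38, chr11:114668520-114668599, plus strand: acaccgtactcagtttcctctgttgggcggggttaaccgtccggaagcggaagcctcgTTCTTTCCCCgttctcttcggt
Rplp2, chr7:141447591-141447670, plus strand: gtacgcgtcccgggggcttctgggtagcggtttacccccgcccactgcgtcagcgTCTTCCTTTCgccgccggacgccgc
Rps10, chr17:27635225-27635304, minus strand: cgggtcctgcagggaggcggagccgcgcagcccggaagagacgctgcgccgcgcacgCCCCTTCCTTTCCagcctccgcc
Rps6, chr4:86857348-86857427, minus strand: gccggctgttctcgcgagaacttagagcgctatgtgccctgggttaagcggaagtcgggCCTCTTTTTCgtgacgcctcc
Rps25, chr9:44407654-44407733, plus strand: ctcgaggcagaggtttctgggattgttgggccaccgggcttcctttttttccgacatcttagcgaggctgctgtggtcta

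In the 300 bases from 250 before the start to 50 after it, the letters CCGGAAG, the core of the motif bound by Ets factors such as Gabpa, occurred on either strand in 21 of the 44 members (47.7%) and in 15.0% of genes in the table. The letters AAGATGG, the core of the YY1 motif, occurred on either strand in 8 members (18.2%) and in 7.53% of genes. The first motif lay in the promoters of Rps2, Rps7 and Rpsa, the second in those of Rpl13a, Rpl22 and Rps16, and both in Rps7 and Rps26. The first motif ends and the second begins with the letters AAG, so matches can overlap, and each motif was counted by itself. A match describes the letters and is no measured binding site.

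The ribosomal protein probe sets were among the brightest of the arrays. Of the 50 members, 37 lay among the 4549 genes brightest by mean log2 intensity, 36 among the top 1820 and 16 among the top 182. Between the brightest 37, with geometric means over the 9 arrays of 4664 to 89082, and the other 13, at 8.17 to 1379, there was a gap. The brightest was Rps29, a small-subunit protein that binds zinc. Its intensities in replicates 1, 2 and 3 were 73029, 104913 and 88902 in ZsG minus cTEC, 101115, 100395 and 107186 in ZsG minus mTEC, and 83555, 55953 and 101952 in ZsG plus. All 3 groups of Rps29 overlapped, and the ZsG plus arrays spanned the widest range. Rpl13a, Rps28, Rpl38 and Rps20 followed. Intensity depends on the probes as well as on the RNA, so this order is one of probe sets and not of transcript amounts.

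**Figure D1:**
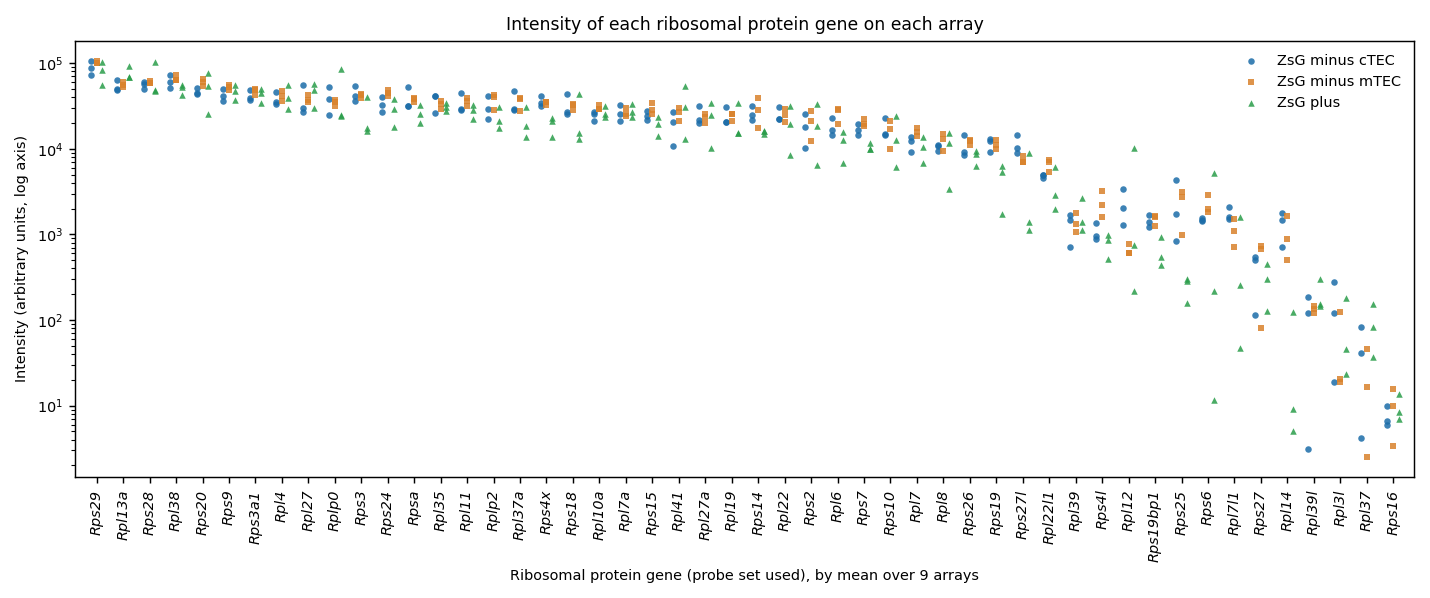
Intensity (log axis, arbitrary units) of the probe set used for each of the 50 ribosomal protein genes on each of the 9 arrays; each point is 1 array, coloured by group, and genes are ordered by their mean. The 37 genes on the left lie between geometric means of 4664 and 89082. The ZsG plus points (triangles) scatter more in the 13 dim genes on the right than in those 37. Their median SD on the log2 scale was 0.94 and 0.49. In the dim genes ZsG plus had the largest SD of the 3 groups in 6 of 13.

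The dim members were 8 subunit genes (Rpl39, Rpl12, Rps25, Rps6, Rps27, Rpl14, Rpl37 and Rps16), 4 paralogues (Rps4l, Rpl7l1, Rpl39l and Rpl3l) and Rps19bp1. Each of these 8 subunit genes was also listed with other symbols on a brighter probe set. The only probe set with the symbol Rps16 alone read 3.38 to 15.7 over the 9 arrays, while 2 probe sets that list Rps16 with other symbols had geometric means of 16107 and 25417. Likewise the probe set of Rps27 had a geometric mean of 302, and a probe set listing Rps27 with other symbols 54159. Rpl39 and Rpl37 had bright probe sets of this kind as well, at 49936 and up to 50809. The 6 PheX and DapX control probe sets, for bacterial genes that mouse RNA does not contain, read 3.77 to 341. No other bacterial controls were used for this range. It holds the group means of Rps16, Rps27, Rpl37, Rpl39l and Rpl3l in all 3 groups. The paralogues Rpl3l, known from striated muscle, and Rpl39l, known from testis, were thus at the level of those controls. Their differences and that of Rpl37 were large and uncertain. Rpl37 read 41.4, 4.17 and 81.8 in ZsG minus cTEC, 46.3, 16.4 and 2.51 in ZsG minus mTEC, and 36.5, 152 and 83.2 in ZsG plus, a difference of 2.64 ± 1.32 from ZsG minus mTEC with an adjusted p of 0.426 by limma. Rpl39l read 184, 3.11 and 120, then 122, 147 and 135, and in ZsG plus 152, 300 and 146, and its difference from ZsG minus cTEC was 2.20 in ZsG plus and 1.71 for ZsG minus mTEC, which became 0.34 and −0.15 without ZsG minus cTEC replicate 2, the array at 3.11. Rpl3l ranged from 18.8 to 275 with all groups overlapping.

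In ZsG plus against ZsG minus mTEC, no ribosomal protein gene passed an adjusted p of 0.05. The counts were 0 higher and 0 lower of 50 by limma's test with Benjamini-Hochberg adjustment over all 18194 genes, where 0.0165% of all genes passed as higher and 0.203% as lower. At an unadjusted p under 0.05, 0 members were higher and 5 (10%) lower, beside 3.2% and 10.2% of all genes. The 5 were Rpl14, Rps25, Rps19, Rps4l and Rps19bp1. In both directions together, the number became 13 (26%, beside 15.5% of all genes) with intensities below 100 raised to 100. It was 9 (18%, beside 14.6%) with the mean over a gene's probe sets and 3 (6%, beside 14.1%) after centring. When each array was left out it ran from 2 to 7 (4% to 14%), beside 9.65% to 18.3% of all genes. The median difference over the members was −0.41 on the log2 scale, with 38 of 50 lower, and over all genes −0.33, with 61.0% lower. The smallest adjusted p was 0.089, for Rpl14, and the next 0.154, for Rps25.

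In ZsG plus against ZsG minus cTEC, 1 member passed: Rpl14 fell, by limma's test. The other counts were 0 higher, beside 0.599% of all genes, while 1.14% of all genes passed as lower. At an unadjusted p under 0.05, 0 members were higher and 6 (12%) lower, beside 7.44% and 11.3% of all genes; these were Rpl14, Rps25, Rps19, Rps27l, Rpl7l1 and Rps19bp1. The number in both directions became 10 (20%, beside 20.2% of all genes) with the same floor. It was 8 (16%, beside 21.5%) with the mean over probe sets and 2 (4%, beside 19.6%) after centring. When each array was left out it ran from 2 to 6 (4% to 12%), beside 13.4% to 22.4% of all genes. The median member difference was −0.29, with 35 of 50 lower, and the median over all genes −0.14, with 53.7% lower. Both comparisons share the ZsG plus arrays, so their values are given side by side and are not independent.

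Between the reporter-negative groups the members differed least. In ZsG minus mTEC against ZsG minus cTEC, limma's test passed 0 members higher and 0 lower after adjustment, beside 0.528% and 0.0989% of all genes. At an unadjusted p under 0.05, it passed 0 higher and 0 lower, beside 8.4% and 3.9%. The median member difference was 0.11, with 35 of 50 higher, and that over all genes 0.09. Of the 50 members, 46 differed by no more than 1 on the log2 scale, as did 62.1% of all genes and 78.3% of the 4549 brightest. The same held for 40 members in ZsG plus against ZsG minus mTEC, beside 55.2% of all genes and 73.0% of the 4549 brightest, and for 41 in ZsG plus against ZsG minus cTEC, beside 50.1% and 63.2%. The median standard error of a member's difference was 0.56, so that a difference of 1 was less than 2 of these errors.

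**Figure D2:**
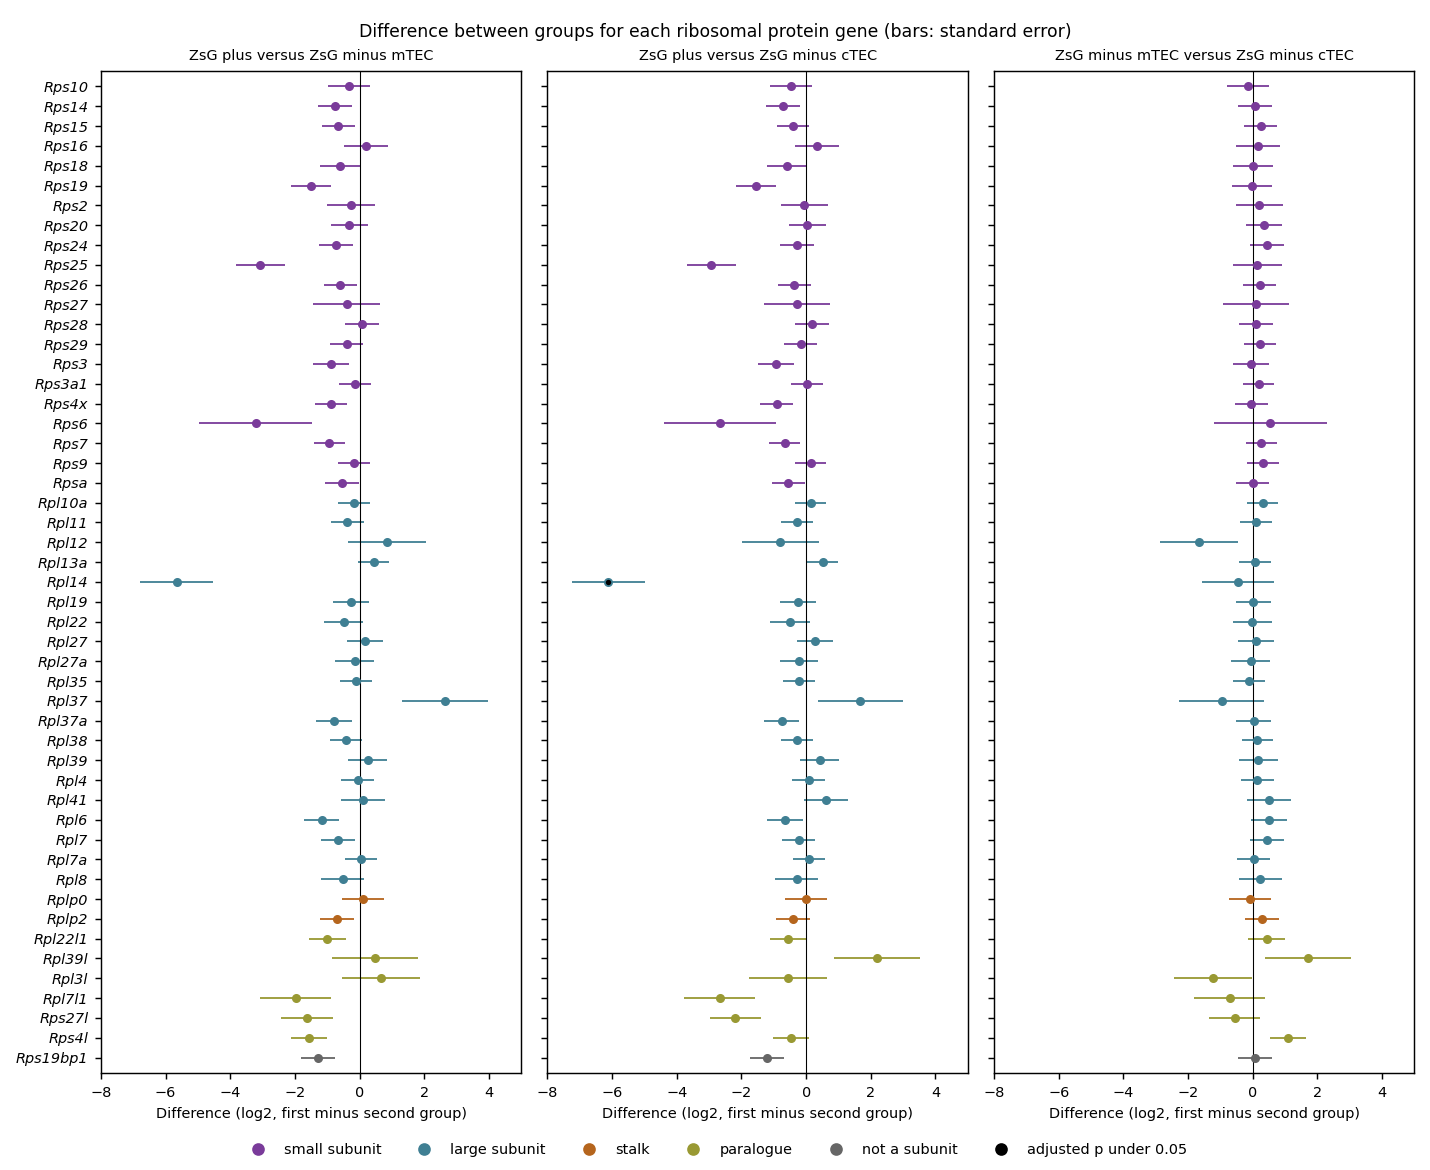
Log2 difference between groups with its standard error (bars) for each of the 50 ribosomal protein genes, in 3 comparisons, coloured by class. Most points lie within 1 of the zero line; Rpl14, at −6.12 in ZsG plus versus ZsG minus cTEC, is the 1 gene with an adjusted p under 0.05 (black centre).

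The direction of the member medians depended on how arrays were put on a common scale. The deposited arrays share a trimmed mean, but their medians over all probe sets were 230 to 316 for ZsG plus and 366 to 424 for the other 6 arrays. When each array was centred on its median, the member medians turned to 0.21 and 0.16 in the ZsG plus comparisons and −0.06 between the reporter-negative groups, and the medians over all genes to 0.30, 0.32 and −0.08. With repeated quantile normalization they were −0.73, −0.64 and 0.05. No scaling was singled out by a measured value, and so no direction is stated for the members as a set. Relative to the median of the 4549 brightest genes, the member median was lower by 0.22 and 0.11 on the log2 scale in the ZsG plus comparisons. Centring leaves this gap as it is, and after quantile normalization it was 0.47 and 0.39. Its size depends on the reference. In the deposited scaling the member medians were −0.41 and −0.29. Those of all genes were −0.33 and −0.14, of the 4549 brightest −0.19 and −0.18, and of the 1820 brightest −0.02 and 0.06.

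In the deposited scaling, the small-subunit genes showed more differences with groups that did not overlap than the large-subunit genes. After centring this did not hold: against ZsG minus mTEC, ZsG plus then lay below in 1 small-subunit and 1 large-subunit gene and above in 1 and 5. Over all members in the deposited scaling, the 3 ZsG plus arrays lay below the 3 ZsG minus mTEC arrays in 15 genes (30%, beside 12.3% of all genes) and above them in 1 (beside 5.77%). Against ZsG minus cTEC, they lay below in 8 genes (16%, beside 13.4%) and above in 1 (beside 9.9%). Of the 21 small-subunit genes, 9 lay below in the first comparison and 5 in the second, with median differences of −0.59 and −0.41. Of the 20 large-subunit genes, 4 and 1 did, with medians of −0.16 and −0.23; the difference between the subunits was not tested. The counts over all members also moved with the scaling. For ZsG plus against ZsG minus mTEC they became 2 below and 7 above after centring, beside 5.82% and 14.0% of all genes, and 27 below and 2 above after quantile normalization, beside 9.93% and 8.51%. For ZsG plus against ZsG minus cTEC they became 4 below and 4 above after centring, beside 8.46% and 15.7% of all genes, and 21 below and 1 above after quantile normalization, beside 11.1% and 13.5%. Rpl14 and Rps25 lay below both groups under all 3 scalings.

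Rps19, a small-subunit protein known from Diamond-Blackfan anaemia, had intensities in replicates 1, 2 and 3 of 9272, 12909 and 12189 in ZsG minus cTEC, of 9942, 12544 and 11133 in ZsG minus mTEC, and of 1737, 5373 and 6365 in ZsG plus. Every ZsG plus array lay below the 6 others. The differences of ZsG plus were −1.52 ± 0.62 (SE, n = 3 per group) from ZsG minus mTEC and −1.54 ± 0.62 from ZsG minus cTEC, with limma's adjusted p at 0.343 and 0.225. Rps19bp1, whose protein binds Rps19, read 1387, 1681 and 1221 in ZsG minus cTEC, 1582, 1646 and 1252 in ZsG minus mTEC, and 439, 944 and 547 in ZsG plus. Its ZsG plus arrays too were the 3 lowest, at −1.28 ± 0.53 and −1.22 ± 0.53, with adjusted p of 0.345 and 0.259 by limma. After centring, the groups of Rps19 overlapped in both comparisons, and Rps19bp1 stayed apart from ZsG minus cTEC alone.

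Rps4x, a core protein of the small subunit, read 33920, 41607 and 31333 in ZsG minus cTEC, 35139, 35206 and 32877 in ZsG minus mTEC, and 22789, 21035 and 13813 in ZsG plus. Rps7, which also binds the p53 regulator Mdm2, read 14520, 19206 and 16723, then 22106, 19721 and 18486, and in ZsG plus 9930, 11691 and 10020. Rps14, known from the 5q- syndrome, read 24657, 31835 and 21882, then 39284, 28452 and 17418, and in ZsG plus 15000, 16296 and 16102. In these 3 genes all ZsG plus arrays were below all others, and those of Rps14 and Rps7 lay close together, with SDs of 0.06 and 0.13 on the log2 scale. A second probe set of Rps7 did not show this: it read 5805, 6423 and 13926 in ZsG plus, overlapped both other groups, and differed by −0.22 and −0.13. Nor did the other probe set of Rps14, which read 18397, 9324 and 13527 in ZsG plus. It overlapped both other groups and differed by −0.61 and −0.63. The differences from ZsG minus mTEC and ZsG minus cTEC were −0.87 and −0.91 for Rps4x, −0.93 and −0.67 for Rps7, and −0.77 and −0.71 for Rps14, with adjusted p by limma between 0.358 and 0.55. After centring, Rps7 and Rps14 overlapped in both comparisons, and Rps4x stayed apart from ZsG minus cTEC.

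Rps3, at the entry of the mRNA channel, read 35775, 54234 and 40781 in ZsG minus cTEC, 43293, 42561 and 39340 in ZsG minus mTEC, and 40368, 15971 and 17555 in ZsG plus. Its first ZsG plus array lay among the others, and the remaining ZsG plus arrays were the lowest. Rpsa, which is also known as a laminin receptor, read 31457, 52976 and 31730, then 39526, 38169 and 34752, and in ZsG plus 32736, 25422 and 20240. The ZsG plus arrays of Rpsa lay below ZsG minus mTEC and overlapped ZsG minus cTEC, at −0.55 ± 0.51 from each. Rps15, Rps24 and Rps26 likewise lay below ZsG minus mTEC alone, at −0.65, −0.73 and −0.59. Other probe sets varied in this. The second of Rps15, at −0.26, overlapped ZsG minus mTEC. Of the other bright ones of Rps24, those at −0.34 and −0.66 overlapped it, and the one at −0.57 lay below it.

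Rpl13a, a large-subunit protein that can leave the ribosome to silence inflammatory mRNAs, was the 1 member above both groups. Its intensities were 48692, 63124 and 49706 in ZsG minus cTEC, 60864, 52166 and 55865 in ZsG minus mTEC, and 68050, 69094 and 93445 in ZsG plus. The differences of 0.44 ± 0.49 and 0.51 ± 0.49 had adjusted p of 0.717 and 0.61 by limma. Of its 4 probe sets with that symbol alone, 1 had this sign in both comparisons, and after quantile normalization the groups overlapped. A bright probe set listing Rpl13a with Gm11478 had the same sign, at 0.52 and 0.59. A dim one listing it with Flt3l had the other sign, at −3.68 and −2.39. Rpl6 read 16677, 22708 and 14420, then 29280, 19274 and 28024, and in ZsG plus 12813, 6847 and 15656; it lay below ZsG minus mTEC, at −1.18 ± 0.55 (limma's adjusted p = 0.401). Rpl7 and Rpl38, the latter known for its part in translating Hox mRNAs, lay below ZsG minus mTEC too, at −0.66 and −0.43. Rpl11, which with Rpl5 holds Mdm2 when ribosome assembly fails, differed by −0.38 ± 0.50 and −0.28 ± 0.50, and Rpl10a by −0.17 and 0.14, each with overlapping groups.

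**Figure D3:**
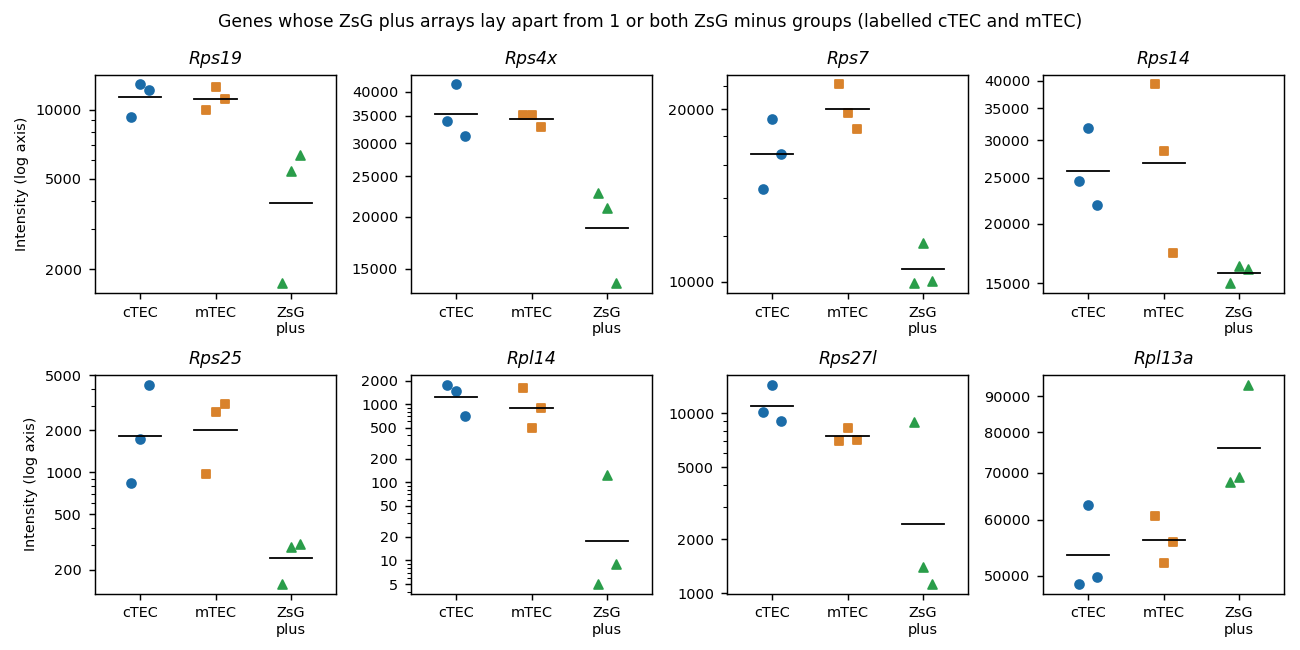
Intensity (log axis, a separate scale in each panel) of 8 ribosomal protein genes on each array, with the geometric mean of each group as a line; cTEC and mTEC stand for the ZsG minus groups. In Rps19, Rps4x, Rps7, Rps14, Rps25 and Rpl14 all ZsG plus arrays lie below the other 6, Rps27l lies apart from cTEC alone, and Rpl13a lies above.

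The stalk genes shared no direction. Rplp0, which anchors the stalk and is often used as a reference gene, read 25003, 38134 and 52803 in ZsG minus cTEC, 35042, 37400 and 31724 in ZsG minus mTEC, and 24095, 24961 and 84506 in ZsG plus. Its highest and its lowest value both fell on ZsG plus arrays, and the differences were 0.10 ± 0.65 and 0.00 ± 0.65. Rplp2, which forms the acidic arms of the stalk, read 22489, 41154 and 29111, then 42455, 40216 and 28690, and in ZsG plus 21001, 17608 and 31023. Its differences were −0.70 ± 0.53 from ZsG minus mTEC and −0.41 ± 0.53 from ZsG minus cTEC, with overlapping groups. Rplp0 thus varied more among the ZsG plus arrays, with an SD of 1.03, than it differed between groups.

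Rpl14, a large-subunit protein and the 1 member that passed the test, read 1769, 1484 and 716 in ZsG minus cTEC, 1621, 501 and 895 in ZsG minus mTEC, and 5.04, 123 and 9.04 in ZsG plus. All ZsG plus arrays lay below all others, and within the range of the bacterial controls. The difference from ZsG minus cTEC was −6.12 ± 1.12, with an adjusted p of 0.038 by limma. From ZsG minus mTEC it was −5.66 ± 1.12, with an adjusted p of 0.089. The sizes rest on values at the level of the controls: with intensities below 100 raised to 100 they were −3.52 and −3.07, with limma's adjusted p of 0.0133 and 0.0456. Another 5 probe sets that list Rpl14 beside its pseudogene Rpl14-ps1 were far brighter, with geometric means of 16992 to 36583. They differed by −1.002 to −0.057 from ZsG minus cTEC and by −1.26 to −0.13 from ZsG minus mTEC, and none passed the test in a fit of all probe sets. The large difference was therefore measured by 1 dim probe set, and the bright probe sets that list the same gene did not show one of that size. The call against ZsG minus cTEC was also lost without any 1 ZsG minus cTEC or ZsG minus mTEC array, or without ZsG plus replicate 3. Its adjusted p by limma was then 0.0631 to 0.15. Against ZsG minus mTEC, Rpl14 passed without ZsG plus replicate 2 (adjusted p = 0.0182 by limma). It also passed with intensities below 100 raised to 100 (adjusted p = 0.0456 by limma). The calls over all genes moved too. Against ZsG minus cTEC, 109 passed as higher and 208 as lower in the main fit. Without ZsG minus cTEC replicate 1 or 2 these were 0 and 0, and without replicate 3, 9 and 14. Without 1 ZsG minus mTEC array they were at most 18 and 63, and without ZsG plus replicate 3, 166 and 308. Against ZsG minus mTEC, 3 and 37 became 10 and 201 without ZsG plus replicate 2, and 22 and 180 with that floor.

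Rps25, a small-subunit protein needed for translation from some viral internal entry sites, read 842, 1727 and 4260 in ZsG minus cTEC, 978, 2720 and 3102 in ZsG minus mTEC, and 158, 289 and 305 in ZsG plus. No ZsG plus array reached the lowest of the others, and all 3 lay within the 3.77 to 341 of the bacterial controls, so the size of the difference is uncertain. The differences were −3.07 ± 0.76 from ZsG minus mTEC (limma's adjusted p = 0.154) and −2.93 ± 0.76 from ZsG minus cTEC (limma's adjusted p = 0.0911). A probe set that lists Rps25 with another symbol had a geometric mean of 24463 and differed by −0.86 and −0.61, smaller than the differences of the dim probe set. Rps6, the subunit that S6 kinases phosphorylate, read 1558, 1434 and 1488, then 1817, 1957 and 2893, and in ZsG plus 217, 5223 and 11.5. Its ZsG plus arrays held both the highest and the lowest of the 9 values, with an SD of 4.42, and the differences of −3.21 ± 1.74 and −2.67 ± 1.74 did not pass. In 9 probe sets that list Rps6 with other symbols the differences ran from −0.47 to 1.40 against ZsG minus mTEC. Rpl12, at the base of the stalk, read 3389, 2011 and 1291, then 612, 599 and 771, and in ZsG plus 219, 758 and 10170, again with a ZsG plus array at each end.

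**Figure D4:**
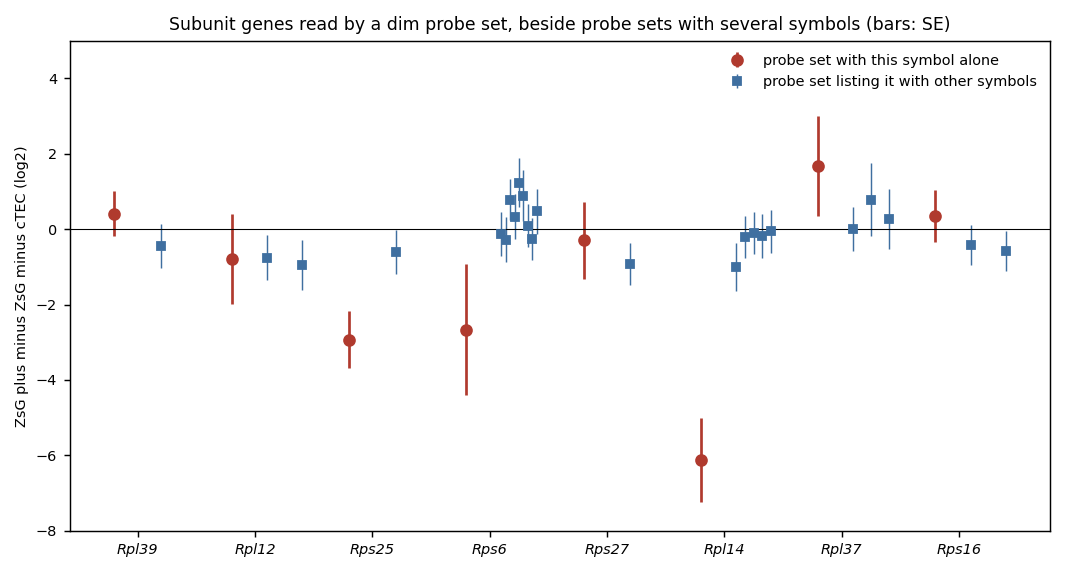
Log2 difference of ZsG plus from ZsG minus cTEC, with its standard error (bars), for 8 subunit genes whose own probe set was dim (circles) and for the probe sets that list the gene with other symbols (squares). For Rpl14 the circle lies at −6.12 and the 5 squares between −1.002 and −0.057.

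Across all 110 probe sets that list a ribosomal protein gene with other symbols, 46 symbols were represented, 31 of them not members. Their median geometric mean was 19887. The median difference was −0.47 from ZsG minus mTEC, with 83 of 110 lower, and −0.34 from ZsG minus cTEC, with 80 lower. Between the reporter-negative groups it was 0.12. Over the 34958 probe sets with 1 symbol, the medians were −0.38, −0.30 and 0.01. In a fit of those, 6 passed as higher and 76 as lower against ZsG minus mTEC, and 124 and 412 against ZsG minus cTEC. All these values are in the deposited scaling, and the direction of the member medians depended on the scaling. None of the 110 passed in a fit of all probe sets, and the smallest adjusted p by limma was 0.103. They share targets with each other and with the members, so they do not count as independent measurements. On them Rplp1, the stalk protein the symbol rule could not place, differed by −1.07 and −0.41.

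Among the paralogues, Rps27l, a p53 target related to Rps27, read 10213, 14396 and 9020 in ZsG minus cTEC, 7005, 8334 and 7085 in ZsG minus mTEC, and 8948, 1392 and 1130 in ZsG plus. In ZsG plus its first array stood with the reporter-negative cells and the other 2 far below. The difference from ZsG minus cTEC was −2.19 ± 0.79 (limma's adjusted p = 0.185) and from ZsG minus mTEC −1.63 ± 0.79, and all 3 of its probe sets had the same sign. Without ZsG plus replicate 1, the difference from ZsG minus cTEC was −3.13 with an adjusted p of 0.0282 by limma. Over all genes, 170 passed as higher and 515 as lower without that array, against 109 and 208 with it. Rps27, the relative of Rps27l, was read by a dim probe set and differed by −0.29 ± 1.02 and −0.40 ± 1.02. The bright probe set that lists Rps27 with Rps27rt read 25593, 30734 and 43645 in ZsG plus and at least 48179 on the other 6 arrays, and differed by −0.92 ± 0.57 and −1.29 ± 0.57, without passing limma's test (adjusted p = 0.436 and 0.383).

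Rps4l, a relative of Rps4x, read 886, 954 and 1369 in ZsG minus cTEC, 2189, 3236 and 1614 in ZsG minus mTEC, and 509, 988 and 864 in ZsG plus. The ZsG minus mTEC arrays were the 3 highest, at 1.10 ± 0.56 above ZsG minus cTEC, where the adjusted p of 0.481 was the smallest of any member by limma. Rps4x itself differed by −0.04 between those groups. Rpl7l1, which takes part in making the large subunit, read 2075, 1601 and 1530, then 714, 1082 and 1512, and in ZsG plus 47.1, 1617 and 254. Without ZsG plus replicate 2, which stood with the other groups, its difference from ZsG minus cTEC changed from −2.68 to −3.97. It then passed limma's test at an adjusted p of 0.0363. Over all genes, 196 passed as higher and 539 as lower without that array, against 109 and 208 with it. Rpl22, which T cell development requires, read 22082, 30345 and 22231, then 28893, 24593 and 20547, and in ZsG plus 19708, 8558 and 31181. Its paralogue Rpl22l1 read 4921, 4877 and 4584, then 7302, 5368 and 6967, and in ZsG plus 2871, 1959 and 6177. Both differed from ZsG minus cTEC by about the same amount, −0.50 ± 0.61 and −0.55 ± 0.58, and did not pass. The Rpl22 value is that of the brightest of its 3 probe sets, and the others differed by −1.18 and −2.87.

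Between the reporter-negative groups, ZsG minus mTEC lay above ZsG minus cTEC in 7 members (14%, beside 16.6% of all genes) and below in 3 (6%, beside 11.8%). The 7 were Rpl10a, Rpl22l1, Rpl7, Rps20, Rps24, Rps4l and Rps6, and the 3 were Rpl12, Rpl7l1 and Rps27l. In Rpl7 the nearest arrays of the groups, at 13905 and 13910, almost met. After centring, Rps6 alone lay above, beside 13.2% of all genes, and the 3 lay below as before, beside 15.4%. Other probe sets did not all share these signs. Those of Rpl7l1 differed by 0.20 and 1.02, against −0.71 for the one used. The brighter ones listing Rpl12 with other symbols differed by 0.04 and 0.29, against −1.65. For Rps6 the second probe set differed by −1.66, against 0.54, and 9 listing it with other symbols by −0.16 to 0.38. All 3 of Rps27l shared its sign.

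Within a group, the members varied less than genes in general, as bright probe sets did. The median SD of a member over the 3 arrays of a group, on the log2 scale, was 0.34 in ZsG minus cTEC, 0.17 in ZsG minus mTEC and 0.59 in ZsG plus. Over all genes it was 0.61, 0.63 and 1.30, and over the 4549 brightest 0.34, 0.32 and 0.96. The 1820 brightest genes, in which 36 members lie, had 0.28, 0.24 and 0.70. Of the 50 members, 33 (66%) had their largest SD in ZsG plus, as did 63.4% of all genes and 80.2% of the 4549 brightest. In 34 members (68%) the smallest SD was in ZsG minus mTEC, as in 41.6% of all genes and 52.9% of the 1820 brightest. These values describe the set and were not tested. Rps28 and Rps29 had SDs of 0.05 in ZsG minus mTEC, against 0.63 and 0.44 in ZsG plus. The largest SDs in ZsG plus were those of Rps6 (4.42), Rpl12 (2.83), Rpl7l1 (2.55), Rpl14 (2.46) and Rps27l (1.64). The SD in ZsG minus cTEC rested on 1 array: without ZsG minus cTEC replicate 2 the median was 0.15.

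**Figure D5:**
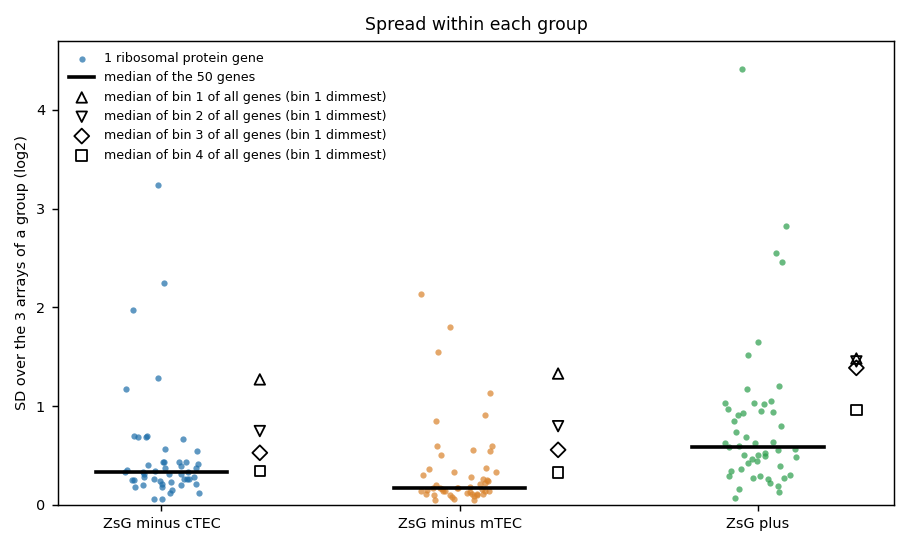
SD of log2 intensity over the 3 arrays of a group for each of the 50 ribosomal protein genes (points), their median (line), and the median over 4 equal bins of all genes by brightness (open symbols). The member medians are 0.34, 0.17 and 0.59, and the bin of the 4549 brightest genes (squares) lies at 0.34, 0.32 and 0.96.

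Array by array, the members varied in part together. The median deviation of the members from their own 9-array means was −0.07, 0.38 and −0.01 in ZsG minus cTEC replicates 1 to 3, 0.27, 0.26 and 0.12 in ZsG minus mTEC, and −0.20, −0.41 and −0.07 in ZsG plus. The medians over all genes were 0.13, 0.11 and 0.09, then 0.19, 0.21 and 0.30, and in ZsG plus −0.01, 0.01 and −0.16. For the members, ZsG minus cTEC replicate 2 was thus the highest and ZsG plus replicate 2 the lowest. The members made up 2.38%, 3.20% and 2.52% of the summed intensity in ZsG minus cTEC, 2.89%, 2.81% and 2.67% in ZsG minus mTEC, and 2.08%, 1.84% and 2.33% in ZsG plus. The 3 ZsG plus shares were the lowest of the 9, and the share does not depend on how whole arrays are scaled up or down. It does depend on the few brightest genes, whose maximum was 284348 to 423749 in ZsG plus and 121897 to 199882 in the other groups. The lowest of a member's 9 values fell on a ZsG plus array in 37 of 50 members, beside 52.8% of all genes, and the highest in 19, beside 47.2%.

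Other genes that make or drive ribosomes were measured in the same fit. Of 29 translation factors measured, 34 being listed, 0 passed in any comparison by limma, and their median differences were −0.13, −0.01 and 0.11 in the order ZsG plus against ZsG minus mTEC, ZsG plus against ZsG minus cTEC, and ZsG minus mTEC against ZsG minus cTEC. Eef1a1, the factor that delivers tRNAs, read 47233 to 59441 in ZsG minus cTEC, 51388 to 60899 in ZsG minus mTEC, and in ZsG plus 46326 to 57086. Of 36 ribosome biogenesis genes, 0 passed, with medians of −0.23, −0.06 and −0.06. Of 13 regulators measured (14 listed), among them Mtor, Larp1 and Myc, 0 passed, with medians of −0.36, −0.56 and −0.11. Fau, the 1 measured gene of the 3 subunit genes outside the symbol rule, differed by −0.04, −0.13 and −0.10. At an unadjusted p under 0.05 by limma, 0 translation factors and 0 regulators passed in the ZsG plus comparisons. Of the 36 biogenesis genes, 1 was higher and 2 lower against ZsG minus mTEC, beside 3.2% and 10.2% of all genes. Against ZsG minus cTEC, 0 were higher and 5 lower, beside 7.44% and 11.3%.

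Several other values differed between the groups. The ratio of the 3′ to the 5′ Gapdh control probe sets, a sign of how complete the amplified RNA was, was 6.71 to 10.6 on the ZsG plus arrays, 4.55 to 5.60 for ZsG minus cTEC and 4.66 to 5.97 for ZsG minus mTEC, while that of beta-actin overlapped, at 0.796 to 1.21 in ZsG plus and 0.874 to 1.14 in the others. The summed intensity of 8 cTEC markers was 266839 to 316536 in ZsG minus cTEC, 60978 to 87513 for ZsG minus mTEC and 55165 to 91866 for ZsG plus. That of 8 mTEC markers was 24169 to 30841, 71915 to 84404 and 57937 to 108441, and the 4 epithelial markers gave 96543 to 129237, 143244 to 153747 and 184433 to 301814. Thymocyte markers, 7 of 8 measured, summed to 38860 to 53083 in ZsG minus cTEC, 4551 to 8356 for ZsG minus mTEC and 3608 to 7426 for ZsG plus. Fibroblast markers, 6 genes, summed to 34363 to 52919, 4196 to 7500 and 4139 to 25464. Their part in the ribosomal protein values was not tested. In such bulk samples, fewer cells of a type and less RNA per cell cannot be told apart.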

How the data were processed

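The authors deposited 1 linear intensity for each of 45101 probe sets on each of 9 arrays; the software behind it is not given in the sources used here. The mean of every array with 2% removed at each end was 1250, as found from the values. No detection calls were analysed here, no pair of arrays held identical values, and the number of arrays limits the precision. Gene names came from the platform annotation: 34958 probe sets had 1 symbol, 932 several and 9211 none. Intensities were taken to log2, and the brightest probe set of each gene was tested with limma 3.58.1 in R 4.3.3 (lmFit and eBayes, 1 coefficient per group over all 9 arrays, 6 residual and 3.28 prior degrees of freedom). Tests were two-sided, with p-values adjusted by the Benjamini-Hochberg method over 18194 genes, with a threshold of 0.05. Errors after ± are standard errors of that fit, and folds are of geometric means. The steps were tested on simulated data.

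Genes named were members past the threshold, the 5 largest differences of each comparison, the 5 brightest and dimmest, the 5 with the largest SD in ZsG plus, stalk genes, paralogue pairs and members with a known special role; the others are given where a count lists them or as examples of the other lists. The members, lists and rules were chosen with earlier results of these data known. Alternatives changed the probe set per gene, filter, floor, scaling, arrays in the fit, weights, replicate block and each replicate. Dendritic cell and macrophage, B cell, erythroid and endothelial marker lists had 0 genes past the threshold in any comparison. Past it were Enpep, Prss16 and Psmb11 of the cTEC list, Cd8a and Dntt of the thymocytes and Dcn of the fibroblasts (all lower in ZsG plus against ZsG minus cTEC), Aire and Fezf2 of the mTEC list (higher), and Cd83, Prss16, Cd8a and Dcn (lower) and Aire and Fezf2 (higher) in ZsG minus mTEC against ZsG minus cTEC; of the epithelial list 0 passed. Figures were drawn with matplotlib 3.10.9.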

Additional observations from a re-analysis of the deposited data

How the results depend on the processing

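The number of members past the threshold was 0 in ZsG minus mTEC against ZsG minus cTEC under every alternative run. In ZsG plus against ZsG minus mTEC it was 0 but for 1 with intensities below 100 raised to 100, and it ran from 0 to 1 when each replicate was left out. In ZsG plus against ZsG minus cTEC it was 1, and became 0 with the filter at the 40th percentile, which leaves Rpl14 out. It was also 0 with only the 6 arrays compared, array weights or, chosen after seeing the data, the probe sets with several symbols. It ran from 0 to 2 when each replicate was left out. Over all genes, 109 passed as higher and 208 as lower there in the main fit. These became 186 and 318 with the filter, 0 and 0 with only the 6 arrays compared, and 6 and 31 with array weights. Without each replicate they ran from 0 to 196 and from 0 to 539. Against ZsG minus mTEC, 3 and 37 became 22 and 180 with intensities below 100 raised to 100. Without each replicate they ran from 0 to 21 and from 0 to 209. The median member difference was −0.79 and −0.57 in the ZsG plus comparisons with the 27 members that have a plain _at probe set, −0.73 and −0.64 with repeated quantile normalization, and 0.21 and 0.16 with arrays centred on their medians; without each replicate in turn it ran from −0.62 to −0.35 and from −0.49 to −0.14. The median SD in ZsG minus mTEC was 0.51 with plain _at probe sets and 0.29 with the mean over a gene's probe sets, and that in ZsG plus 1.03 with plain _at probe sets; without each replicate, that in ZsG minus cTEC ran from 0.15 to 0.36. Rpl14 kept its sign in both ZsG plus comparisons under every alternative that tested it. Members that did not pass could change sign: 19, 14 and 16 of 50 did with centring and 7, 12 and 9 with quantile normalization, in the order ZsG plus against ZsG minus mTEC, ZsG plus against ZsG minus cTEC and between the reporter-negative groups. Apart from what these alternatives do by construction, the cause was not tested.

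Same-numbered arrays showed no shared deviation: their deviations from their group means correlated between −0.01 and 0.01 over all genes. Whether same-numbered samples came from the same mice or sort is not stated in the labels, and these correlations cannot exclude it. With the replicate number as a block, 0 members passed in ZsG plus against ZsG minus cTEC (Rpl14 had an adjusted p of 0.0871 by limma), and over all genes 0, 16 and 0 passed in place of 40, 317 and 114 in the same order.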

Other observations

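The genes of the mitochondrial ribosome, a separate particle that translates the few proteins encoded by mitochondrial DNA, were measured as 76 Mrpl and Mrps genes. Their median difference was −1.12 in ZsG plus against ZsG minus mTEC, −0.97 in ZsG plus against ZsG minus cTEC and 0.19 between the reporter-negative groups, and 0 genes passed limma's test after adjustment in any of them. At an unadjusted p under 0.05, 16 were lower and 1 higher against ZsG minus mTEC, beside 10.2% and 3.2% of all genes, and 10 lower and 3 higher against ZsG minus cTEC, beside 11.3% and 7.44%. Mrps25, a small-subunit protein of that ribosome, read 920, 1100 and 1520 in ZsG minus cTEC, 1640, 972 and 1063 in ZsG minus mTEC, and 41.6, 309 and 43.9 in ZsG plus. Its differences were −3.85 ± 0.81 (limma's adjusted p = 0.101) and −3.80 ± 0.81 (limma's adjusted p = 0.0534). Mrps23 went the other way, with 535, 684 and 283, then 804, 637 and 371, and in ZsG plus 2038, 1602 and 2108. The median SD of these genes in ZsG plus was 1.60, and the 4548 genes in the second brightest of 4 equal bins, which holds their median level, had a median difference of −0.65 from ZsG minus mTEC and −0.61 from ZsG minus cTEC, with a median SD of 1.39.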
